A study of Mus musculus with 23 samples.

Results

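In the mouse cortex at embryonic day E11.5, the regions that carried H3K27me3 in Ebf2-EGFP- cells were compared with the regions that carried H3K27ac in Ebf2-EGFP+ cells. The members were the 48963 H3K27me3 peaks of the first cell group, the 37055 H3K27ac peaks of the second, and the transcription start sites (TSS) of protein-coding genes within 5 kb of either. Of 21938 such TSS, 7642 (34.8%, 95% confidence interval 34.2 to 35.5) had both progenitor H3K27me3 and neuron H3K27ac. Another 2923 TSS (13.3%) had progenitor H3K27me3 only, 3315 (15.1%) had neuron H3K27ac only and 8058 (36.7%) had neither. These 2 lists belong to 4 ChIP libraries, and together with 6 further lists they make up the 230624 peaks of the whole series.

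All embryos carried the Ebf2-EGFP transgene, in which EGFP follows the Ebf2 gene, and cortical cells were separated by fluorescence. At E11.5 the Ebf2-EGFP+ cells are mainly preplate neurons, the first neurons of the cortex, and the Ebf2-EGFP- cells are mostly neural progenitors but hold every EGFP- cell type of the tissue. The other lists came from Ebf2-EGFP- cells at E11.5 (H3K27ac, 1 ChIP library) and from Ebf2-EGFP+ cells at E11.5 (H3K27me3), E13.5 and E15.5 (both marks), with 2 ChIP libraries each. H3K27ac in the neurons also came from 2 libraries, as did H3K27me3 in the progenitors. In bulk chromatin of this kind, a mark in few cells and a weak mark in all cells cannot be told apart.

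H3K27me3 is trimethylation of lysine 27 of histone H3. Polycomb repressive complex 2 places it, with EZH2 as the catalytic subunit, at genes of other lineages and other stages. H3K27ac is acetylation of the same residue by the acetyltransferases EP300 and CREBBP, and it marks active promoters and enhancers. One histone tail can hold only one of them at lysine 27, so a gene that leaves Polycomb control during neuronal differentiation has to lose the first mark on a tail before it can gain the second.

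One peak list was deposited per mark and cell group, with a score of 0 for every peak and no read counts. There was thus no replicate error and the depth is unknown, so no difference between lists or gene classes could be tested. Intervals are Wilson 95% intervals over TSS or peaks and cover counting error only. Peaks were narrow in both lists, with a median width of 185 bp for H3K27me3 and 212 bp for H3K27ac, and the widest measured 2565 and 2295 bp. A list can also be short for technical reasons, and the progenitor H3K27ac list (1386 peaks) and the neuron H3K27me3 list (6387 peaks) were far shorter than the pair compared here. The lack of a peak in those lists is therefore not the lack of the mark. The progenitor H3K27me3 list itself is uncertain as a record of Polycomb domains, because its peaks were narrow, were densest just downstream of the TSS and were listed at many genes that all cells use. Here "progenitor H3K27me3" means a peak in that list, and how many of its peaks reflect the mark was not tested.

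The labels of the cell groups were checked with marker genes. Of 12 progenitor markers, 8 had H3K27me3 in the Ebf2-EGFP- cells and 1 had H3K27ac in those cells. The 7 with both progenitor H3K27me3 and neuron H3K27ac were Sox2, Hes1, Nes, Vim, Sox1, Emx2 and Lhx2, all genes of cycling neural precursors, while Notch1 had H3K27me3 only. Of 12 markers of early neurons, 9 had H3K27ac in the Ebf2-EGFP+ cells and 3 had it in the Ebf2-EGFP- cells. Among the 9, Stmn2, Elavl3, Elavl4, Map2, Nhlh1, Nhlh2 and Tbr1 also had progenitor H3K27me3, and Tubb3 and Reln had H3K27ac only. The other 3 (Dcx, Gap43 and Myt1l) had neither. H3K27ac was listed at 49.9% of all TSS in the Ebf2-EGFP+ cells and at 4.17% in the Ebf2-EGFP- cells, so these counts follow the lengths of the lists and do not separate the cell groups. Progenitor markers had H3K27ac in the Ebf2-EGFP+ cells as often as neuron markers (9 of 12), which does not follow the label of that group. Of 8 blood and microglia markers 1 had neuron H3K27ac (Aif1), of 8 endothelial markers 3 (Flt1, Esam and Kdr), of 8 mesenchyme markers 2 (Col1a1 and Twist1) and of 8 interneuron markers 5. How far other cell types contributed to either list was not tested.

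Sequences under the peaks show what kind of DNA the comparison turned on. The first group holds stretches covered by both lists, taken nearest to the TSS of the proneural factor Neurog2, of the 3 genes with the most shared bases (Tmem125, Rbm15b and Fcgr3), and, chosen after their values were seen, of the microtubule regulator Stmn2. All were read from GRCm38 (mm10) on the strand of the gene, 5′ to 3′, with each CG dinucleotide in capitals, and were kept clear of annotated untranslated regions. The Neurog2 stretch (chr3:127633961-127634113, plus strand) lay inside its coding exon, 902 bp downstream of the TSS. Tmem125 (chr4:118541926-118542225, minus strand) and Rbm15b (chr9:106886425-106886724, minus strand) also contributed coding sequence, each as 300 bases from a longer shared stretch. The Fcgr3 stretch (chr1:171065058-171065254, minus strand) lay upstream of the gene and outside any gene, and that of Stmn2 (chr3:8511369-8511657, plus strand) in an intron.
Neurog2: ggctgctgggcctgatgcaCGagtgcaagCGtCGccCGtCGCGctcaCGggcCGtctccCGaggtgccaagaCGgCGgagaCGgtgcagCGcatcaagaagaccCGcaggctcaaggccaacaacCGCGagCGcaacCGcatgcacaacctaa
Tmem125: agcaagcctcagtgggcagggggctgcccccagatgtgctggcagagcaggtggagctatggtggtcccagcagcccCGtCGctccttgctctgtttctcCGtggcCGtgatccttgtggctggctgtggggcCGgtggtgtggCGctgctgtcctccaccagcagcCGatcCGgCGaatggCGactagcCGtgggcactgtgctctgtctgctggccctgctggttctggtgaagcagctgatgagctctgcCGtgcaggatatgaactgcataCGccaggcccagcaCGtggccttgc
Rbm15b: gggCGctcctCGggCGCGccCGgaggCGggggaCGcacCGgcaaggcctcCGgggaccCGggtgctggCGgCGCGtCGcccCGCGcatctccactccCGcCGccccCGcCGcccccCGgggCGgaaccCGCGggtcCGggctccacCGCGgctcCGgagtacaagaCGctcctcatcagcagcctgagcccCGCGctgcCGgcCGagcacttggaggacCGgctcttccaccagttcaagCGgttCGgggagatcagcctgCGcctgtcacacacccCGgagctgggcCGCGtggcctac
Fcgr3: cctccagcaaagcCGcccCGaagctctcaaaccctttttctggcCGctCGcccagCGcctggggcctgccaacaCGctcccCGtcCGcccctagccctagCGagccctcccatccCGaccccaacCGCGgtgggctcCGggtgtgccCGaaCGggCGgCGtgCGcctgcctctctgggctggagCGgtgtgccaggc
Stmn2: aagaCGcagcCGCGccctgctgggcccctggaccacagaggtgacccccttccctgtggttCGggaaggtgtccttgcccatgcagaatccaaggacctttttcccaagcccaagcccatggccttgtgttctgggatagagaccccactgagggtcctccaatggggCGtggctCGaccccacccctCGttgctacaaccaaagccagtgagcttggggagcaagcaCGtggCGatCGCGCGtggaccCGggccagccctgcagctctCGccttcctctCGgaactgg

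These stretches were GC-rich, from 64% G or C in Stmn2 to 76.7% in Rbm15b. They held 18 CG dinucleotides in the 153 bases of Neurog2, 40 in the 300 of Rbm15b and 14 in the 300 of Tmem125. The ratio of observed to expected CG, which is 1 where CG occurs as often as its bases allow and well below that in most of the mouse genome, was 1.06 in Neurog2 and 0.914 in Rbm15b. It was 0.444 in Tmem125 and 0.511 in Stmn2, so that not every shared stretch was CG-rich.

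For contrast, the second group shows stretches with 1 mark only, chosen after their values were seen. Myod1, the master regulator of skeletal muscle, had progenitor H3K27me3 in its coding exon (chr7:46377132-46377275, plus strand), and Hoxa5, a factor of the posterior body axis, had it just upstream of its TSS, in an intron of the overlapping Hoxa3 annotation (chr6:52204588-52204745, minus strand). Neurod1, a factor of differentiating neurons (chr2:79454314-79454613, minus strand, coding exon), and Tubb3, neuronal beta-III tubulin (chr8:123411742-123412041, plus strand, intron), had neuron H3K27ac only.
Myod1: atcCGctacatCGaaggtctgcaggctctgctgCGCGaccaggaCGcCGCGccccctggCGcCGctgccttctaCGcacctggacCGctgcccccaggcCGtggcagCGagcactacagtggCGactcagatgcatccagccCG
Hoxa5: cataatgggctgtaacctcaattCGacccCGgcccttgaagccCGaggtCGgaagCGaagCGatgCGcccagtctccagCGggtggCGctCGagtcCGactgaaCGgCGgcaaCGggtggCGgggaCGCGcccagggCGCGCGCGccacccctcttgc
Neurod1: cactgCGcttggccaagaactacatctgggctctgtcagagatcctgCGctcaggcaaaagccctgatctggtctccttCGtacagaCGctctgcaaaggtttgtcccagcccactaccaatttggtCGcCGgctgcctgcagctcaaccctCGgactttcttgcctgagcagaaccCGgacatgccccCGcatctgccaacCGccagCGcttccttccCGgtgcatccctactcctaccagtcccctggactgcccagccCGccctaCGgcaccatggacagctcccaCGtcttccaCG
Tubb3: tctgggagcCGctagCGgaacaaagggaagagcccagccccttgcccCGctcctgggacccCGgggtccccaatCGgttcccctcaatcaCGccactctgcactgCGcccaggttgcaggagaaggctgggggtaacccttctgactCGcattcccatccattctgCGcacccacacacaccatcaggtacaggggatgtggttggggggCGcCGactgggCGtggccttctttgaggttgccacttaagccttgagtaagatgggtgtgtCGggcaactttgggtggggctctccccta

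The CG ratio of these was 0.887 in Myod1, 1.1 in Hoxa5, 0.621 in Neurod1 and 0.446 in Tubb3. The 2 H3K27me3-only stretches printed had higher ratios than the 2 with H3K27ac only, but these few stretches do not stand for their classes. Over all promoters the order was the reverse, with a median ratio of 0.516 with H3K27me3 only and 0.686 with H3K27ac only.

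Among 30 genes chosen for their roles, 19 TSS had both marks, 3 had H3K27me3 only, 4 had H3K27ac only and 4 had neither. The count of both is read against the 34.8% of all TSS. The genes were picked with earlier results known, and nothing is read from the count. At 14 of the 19 the same bases were covered, and at 5 the peaks of the 2 lists lay apart.

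The proneural and neurogenic factors mostly had both marks. Neurog1 had 3 H3K27me3 peaks and 1 H3K27ac peak, and the H3K27ac peak of 430 bp lay wholly within an H3K27me3 peak of 570 bp at the TSS. Neurog2 (chr3:127633135-127635631) had 1 H3K27me3 peak of 153 bp, which lay inside an H3K27ac peak of 710 bp, and a second H3K27ac peak of 272 bp closer to the TSS. Insm1, a zinc finger factor of newborn neurons, shared 525 bp, Eomes, a T-box factor of intermediate progenitors, 243 bp, and Nhlh1, a bHLH factor of early neurons, 130 bp. Neurod1 had no H3K27me3 peak within 5 kb and 626 bp of H3K27ac, and Neurod6, a factor of later cortical neurons, had the opposite pattern with 221 bp of H3K27me3 and no H3K27ac. Later the Ebf2-EGFP+ cells had H3K27ac at Neurod6, with 1 peak at E13.5 and 2 at E15.5. Neurod4 had no peak of either mark.

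Genes of telencephalic patterning, progenitors and deep-layer neurons differed in their shared bases, which were longest at Lhx2 and Emx2 of those named here. Lhx2, a cortical selector gene, had 600 bp of H3K27me3 that all lay within 723 bp of H3K27ac. The progenitors themselves also had 2 H3K27ac peaks at Lhx2, in a list that marked 4.17% of all TSS. Emx2, another homeobox gene of the cortex, had all 473 bp of its H3K27me3 under H3K27ac. Hes1, a Notch effector that keeps progenitors cycling, shared 101 bp, while Nes, the intermediate filament nestin, and Bcl11b, a factor of deep-layer neurons, had both marks on different bases. Fezf2, which specifies deep-layer projection neurons, had 3 H3K27ac peaks and no H3K27me3 within 5 kb.

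Neuronal effector genes divided. Elavl3, a neuronal RNA-binding protein, had 5 H3K27me3 and 4 H3K27ac peaks with 474 bp shared, and Elavl4, of the same family, shared all 243 bp of its H3K27me3. Stmn2 had an H3K27me3 peak of 630 bp that contained its H3K27ac peak of 289 bp. Tubb3 had 925 bp of H3K27ac in 3 peaks and no H3K27me3. Dcx, Gap43 and Myt1l, which are doublecortin, a growth cone protein and a neuronal zinc finger factor, had neither mark within 5 kb, although Myt1l had 4 H3K27ac peaks at E15.5 and Gap43 had 1.

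Regulators of other lineages were not confined to H3K27me3. Myod1 and Sox17, an endoderm factor, had H3K27me3 only, with 144 and 503 bp. Gata4 (heart and endoderm), Cdx2 (hindgut) and Pax7 (muscle and dorsal neural tube) had both marks within 5 kb but on different bases, and Hoxa9, of the posterior body, had 268 bp in common, which lay over 3 kb upstream in the coding exon of its neighbour Hoxa10. Housekeeping genes were also found with H3K27me3. Gapdh, a glycolytic enzyme, had 3 H3K27me3 peaks and Rpl7, a ribosomal protein, had 2, with 161 and 243 bp under H3K27ac as well. Actb, cytoplasmic actin, had a single H3K27ac peak of 426 bp and no H3K27me3.

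**Figure D1:**
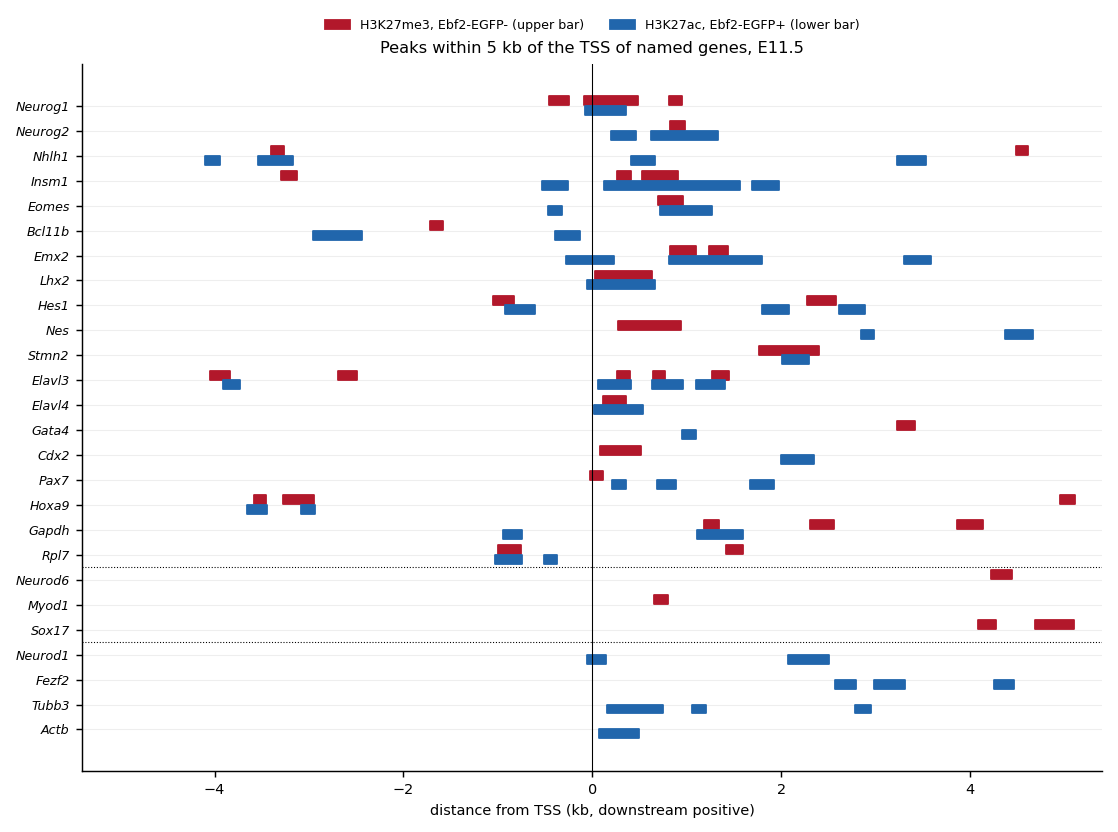
Peaks of progenitor H3K27me3 (upper, red bars) and neuron H3K27ac (lower, blue bars) drawn to scale against the distance from the TSS in kb, for the 26 of 30 named genes with at least 1 peak, grouped from top to bottom into both marks, H3K27me3 only and H3K27ac only. The bars overlap at 14 of the 19 genes with both marks, as at Lhx2 and Neurog2, and lie apart at the other 5, as at Nes and Cdx2.

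The genes with most bases under both lists included few neural regulators. Tmem125, which encodes a transmembrane protein, led with 1521 bp in common, followed by Rbm15b, an RNA-binding protein, with 1451 bp and Fcgr3, a receptor for immunoglobulin G, with 1427 bp. Among those that followed were Gm13289 (1304 bp), Mtcl1 (1227 bp), the phosphatase gene Phlpp1 (1219 bp), Gm47283 (1211 bp) and Irs2 (1204 bp), which encodes an insulin receptor substrate. Tmem125 was marked in all 8 lists. Gm13289 had 6 peaks in each of the 2 lists compared and 11 H3K27ac peaks at E13.5. Gm47283 had 8 H3K27me3 peaks in the progenitors and 8 H3K27ac peaks at E13.5. Fcgr3 had 4 peaks of each mark in Ebf2-EGFP+ cells at E13.5. The state of these 3 genes is therefore uncertain. Over all TSS with both marks, 5739 of 7642 (75.1%) had at least 1 base in common, with a median of 215 bp among them, and 515 (6.74%) had 500 bp or more.

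The genes with most H3K27me3 and no neuron H3K27ac included members of the Hoxa cluster. Hoxa5 had 2519 bp of H3K27me3 in 8 peaks, Hoxa6 2232 bp and Hoxa2 1407 bp. These genes also had H3K27me3 in Ebf2-EGFP+ cells at E15.5, with 11, 7 and 14 peaks, although that list held only 1438 peaks in all. In the same cells none of them had H3K27me3 at E11.5, and at E13.5 only Hoxa2 did, with 1 peak. Each also had H3K27ac in those cells later, with 2, 3 and 5 peaks at E13.5 and 1 each at E15.5. Foxf1, a forkhead factor of lung and gut mesenchyme, had 1356 bp in 4 peaks, Zfp37 1347 bp and Ccdc102a 1334 bp. Predicted genes in this set were Gm17535 (2555 bp), Gm13276 (1917 bp) and Gm10715 (1760 bp). Gm17535 and Gm10715 are neighbours on chromosome 9, and each had between 7 and 13 peaks in 5 of the other 6 lists, of both marks, so their state is uncertain. Gm13276 had 11 H3K27ac peaks at E13.5, and its state is uncertain as well.

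The genes with most H3K27ac and no progenitor H3K27me3 had diverse roles. Marcks, an actin-regulating substrate of protein kinase C, had 2027 bp in 4 peaks and Chd7, a chromatin remodeller, 2001 bp. Hnrnpk and Rmi1 are neighbours that shared 1900 bp, and Islr and Islr2 are neighbours that shared 1684 bp in 7 peaks. Phf21b had 1842 bp, Kalrn, a guanine nucleotide exchange factor of dendritic spines, 1727 bp, Maml3, a Notch coactivator, 1715 bp and Ppp3ca, a calcineurin subunit, 1639 bp.

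Progenitor H3K27me3 and neuron H3K27ac fell at the same TSS more often than the product of their shares. H3K27me3 was listed at 10565 TSS (48.2%) and H3K27ac at 10957 (49.9%), whose product is 24.1% or 5277 TSS, and the observed 34.8% was 1.45-fold of it. Of TSS with progenitor H3K27me3, 72.3% (71.5 to 73.2) had neuron H3K27ac, against 29.1% (28.3 to 30) of TSS without it. Conversely, 69.7% (68.9 to 70.6) of TSS with H3K27ac had H3K27me3, against 26.6% (25.8 to 27.5) of the rest. The product serves as a scale only, since promoters differ in many ways that bear on both lists.

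More H3K27me3 went with more H3K27ac. The share of TSS with neuron H3K27ac was 67.7% (66.6 to 68.8) with 1 H3K27me3 peak within 5 kb, 79.2% with 2, 84.2% with 3, 86.9% with 4 and 90.7% (84.1 to 94.7) with 5 or more. By the width of the widest H3K27me3 peak, it was 58.3% (55.7 to 60.9) under 150 bp and 88.4% (86.1 to 90.3) at 500 bp or more. TSS with H3K27me3 only had narrower peaks than those with both, with a median widest peak of 211 against 263 bp. For H3K27ac the corresponding medians were 284 bp with H3K27ac only and 370 bp with both.

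A switch in the strict sense also requires that progenitors lack H3K27ac and neurons lack H3K27me3. In the deposited lists 6341 TSS (28.9% of all, and 83% of the 7642) met all 4 conditions. Of the 7642, 718 (9.4%) also had progenitor H3K27ac, 619 (8.1%) also had neuron H3K27me3 and 36 had all 4. Lhx2, Insm1, Bcl11b, Sox11 and Sox12 were among the 718. Over all TSS, progenitor H3K27ac was listed at 4.17% and neuron H3K27me3 at 4.92%. Most TSS thus met both conditions of absence, TSS with both marks less often than all, and nothing is read from the 83%. The 6341 is an upper count, because both lists that must be empty were short.

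Gene classes differed widely in how often their members carried both marks. Of 39 classes formed from gene names, 27 lay above the 34.8% of all TSS, and 23 had H3K27ac at more of their H3K27me3 TSS than the 72.3% of all. The 12 classes below it were the 6 of other tissues, the Hox and Zfp-named genes, Bmp and Fgf ligands, the cadherins outside the clusters, GABA and glycine receptors, and cell cycle genes. Neighbouring members of a class can share peaks, so members are not independent.

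Transcription factor families other than the Zfp-named genes carried progenitor H3K27me3 at shares above the 48.2% of all TSS. It was listed at 18 of 19 Sox genes, 37 of 44 forkhead genes, 24 of 30 neural bHLH factors, 13 of 16 T-box genes and 116 of 153 homeobox genes other than Hox. Most of these also had neuron H3K27ac, with both marks at 14 Sox genes (73.7%, 51.2 to 88.2), 28 forkhead genes (63.6%), 19 bHLH factors (63.3%), 10 T-box genes (62.5%, but 0% with peaks of at least 300 bp) and 85 homeobox genes (55.6%, 47.6 to 63.2). Sox11 and Sox12, which act in newborn neurons, shared 1056 and 1088 bp, and Hes6, a bHLH factor that promotes neurogenesis, shared 698 bp. Sox11 and Sox12 also had progenitor H3K27ac, with 2 and 1 peaks. The Sox genes with H3K27me3 only were Sox7, Sox10, Sox15 and Sox17, and Sox9, a radial glia and neural crest factor, had H3K27ac only. Among Gata, Klf and Sp genes 20 of 32 had both marks, and among Zic and Ebf genes 6 of 9. Ebf2, whose regulatory sequence drives the EGFP of the sort, was 1 of the 6. The large set of Zfp-named zinc finger genes had both marks at 119 of 365 (32.6%, 28 to 37.6), near the share of all TSS. Their H3K27me3 share, 157 of 365 (43%, 38 to 48.1), lay below that of all TSS.

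The Hox genes stood at the other end of the transcription factors. Progenitor H3K27me3 was listed at 28 of 39 (71.8%, 56.2 to 83.5), a share like that of the other homeobox genes (75.8%), but neuron H3K27ac was listed at 9 of these 28 (32.1%, 17.9 to 50.7) against 85 of 116 (73.3%, 64.6 to 80.5). In the Hoxa cluster 9 of 11 genes had H3K27me3 only and 2 (Hoxa9 and Hoxa13) had both. Hoxd had 5 of 9 with H3K27me3 only, and Hoxb had 4 of 10 with H3K27ac only (Hoxb3, Hoxb4, Hoxb6 and Hoxb7). In the neurons H3K27me3 was listed at 0 of 39 Hox genes at E11.5, against 4.92% of all TSS. It was listed at 24 at E13.5 (9.31% of all TSS) and at 7 at E15.5 (1.06% of all TSS), of which 6 were in Hoxa. H3K27ac was listed at 38 Hox TSS at E13.5, when the H3K27ac list was the longest of the series with 102881 peaks, and at 13 at E15.5. Only 3 of the 9 Hox genes with both marks had a base in common.

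Among signalling and guidance genes, axon guidance families had both marks at 50 to 72.7% of their TSS. Ephrins and their Eph receptors, which steer axons by contact, had both marks at 16 of 22 (72.7%, 51.8 to 86.8), and neuron H3K27ac at 16 of 17 with H3K27me3. With peaks of at least 300 bp the share with both was 4.55%, below the 9.8% of all TSS under that setting. Semaphorins, plexins and neuropilins, a repulsive guidance system, had both at 20 of 31 (64.5%), with 862 bp shared at Sema5b. Wnt ligands and frizzled receptors had both at 19 of 29 (65.5%) and none with H3K27ac only. Netrins, Slits and their receptors had both at 9 of 18 (50%), with Dcc, Robo2 and Slit2 among the 4 with H3K27ac only. Bmp and Fgf ligands had both at 9 of 33 (27.3%), and Fgf8 and Fgf17, which pattern the rostral telencephalon, had H3K27me3 only. The clustered protocadherins, whose promoters lie close together and share peaks, had both at 22 of 57 (38.6%), but at 3.51% in a window of 1 kb, below the 25.2% of all TSS in that window, and the other cadherins and protocadherins at 11 of 35 (31.4%).

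Within neuronal function, neuron H3K27ac was listed at 83.3% of RNA-binding protein genes and 83.3% of cytoskeleton and growth genes. Potassium channels (51.1%), sodium and calcium channels (50%) and glutamate receptors (50%) were near the 49.9% of all TSS. GABA and glycine receptors stood at 23.1% and vesicle release genes at 56.7%. Neuronal RNA-binding proteins had both marks at 14 of 18 (77.8%, 54.8 to 91), including Nova1 and Rbfox3 with 334 and 318 bp in common. Neuronal cytoskeleton and growth genes had both at 20 of 30 (66.7%, 48.8 to 80.8), with H3K27ac at 20 of 21 H3K27me3 TSS (95.2%, 77.3 to 99.2). Of that class Nefl, the light neurofilament subunit, was the only gene with H3K27me3 alone. Potassium channels had both at 37 of 92 (40.2%) and H3K27me3 only at 22, sodium and calcium channels at 16 and 9 of 40, and glutamate receptors at 12 and 7 of 26. In a window of 1 kb, where 25.2% of all TSS had both marks, sodium and calcium channels (25%) and glutamate receptors (23.1%) lay below that share. With peaks of at least 300 bp, where 9.8% of all TSS did, potassium channels (8.7%) and glutamate receptors (7.69%) lay below it and GABA and glycine receptors above it. Grin1 and Gria2, the obligate NMDA receptor subunit and a major AMPA receptor subunit, had H3K27me3 only. GABA and glycine receptors had both at 6 of 26 (23.1%) and neither at 16. Synaptic vesicle release genes had both at 24 of 67 (35.8%, 25.4 to 47.8), close to all TSS. The share of H3K27me3 TSS with neuron H3K27ac was 60 to 64% in the 5 channel, receptor and vesicle classes, below the 72.3% of all TSS, although the interval of each of them reached past that value.

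The classes of progenitor function ranged from 34.6 to 77.6% with both marks. Of 30 progenitor and radial glia genes 19 had both marks (63.3%, 45.5 to 78.1), and 23 had neuron H3K27ac. Replication-dependent histone genes, expressed in S phase, had both at 52 of 67 (77.6%, 66.3 to 85.9), but these clustered genes drew on 39 H3K27me3 and 50 H3K27ac peaks. Cell cycle and replication genes had both at 28 of 81 (34.6%, 25.1 to 45.4), the same as all TSS within error, and Mki67, a marker of cycling cells, shared 380 bp.

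Genes of cell maintenance also carried progenitor H3K27me3. It was listed at 48 of 82 cytosolic ribosomal protein genes (58.5%, 47.7 to 68.6), 26 of 47 splicing factor genes (55.3%), 23 of 43 proteasome genes (53.5%) and 48 of 96 translation factor and tRNA synthetase genes (50%). Neuron H3K27ac was present at 91.7% (80.4 to 96.7) of the H3K27me3 TSS of ribosomal protein genes and at 88.5% of those of splicing factors. Genes for Polycomb, Trithorax and H3K27-modifying enzymes had both marks at 21 of 28 (75%, 56.6 to 87.3). Ezh2, Suz12, Jarid2, Ring1, Ep300, Crebbp, Kdm6a and Kdm6b were among the 21, while Eed and Rnf2 had H3K27ac only and Ezh1 had H3K27me3 only. Except for the Polycomb class (78.6%, 60.5 to 89.8), these H3K27me3 shares lay near the 48.2% of all TSS, which their intervals reached, so they show only that genes all cells use were not spared by the list.

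Genes of other tissues had both marks at 0 to 16.5% of their TSS by class. Olfactory receptor genes had both marks at 10 of 1093 (0.915%, 0.498 to 1.68), vomeronasal receptor genes at 3 of 327 and defensin genes at 0 of 64, where an upper bound of 5.66% applies. Keratin and keratin-associated genes had H3K27me3 at 46 of 109 (42.2%, against 48.2% of all TSS), of which 18 also had H3K27ac (39.1%, 26.4 to 53.5). Cytochrome P450 genes had both at 8 of 94, and serpin and kallikrein genes at 6 of 88. In this group H3K27ac was found at 0 to 44.4% of H3K27me3 TSS by class, against 75.4 to 95.5% in the classes of cell maintenance.

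**Figure D2:**
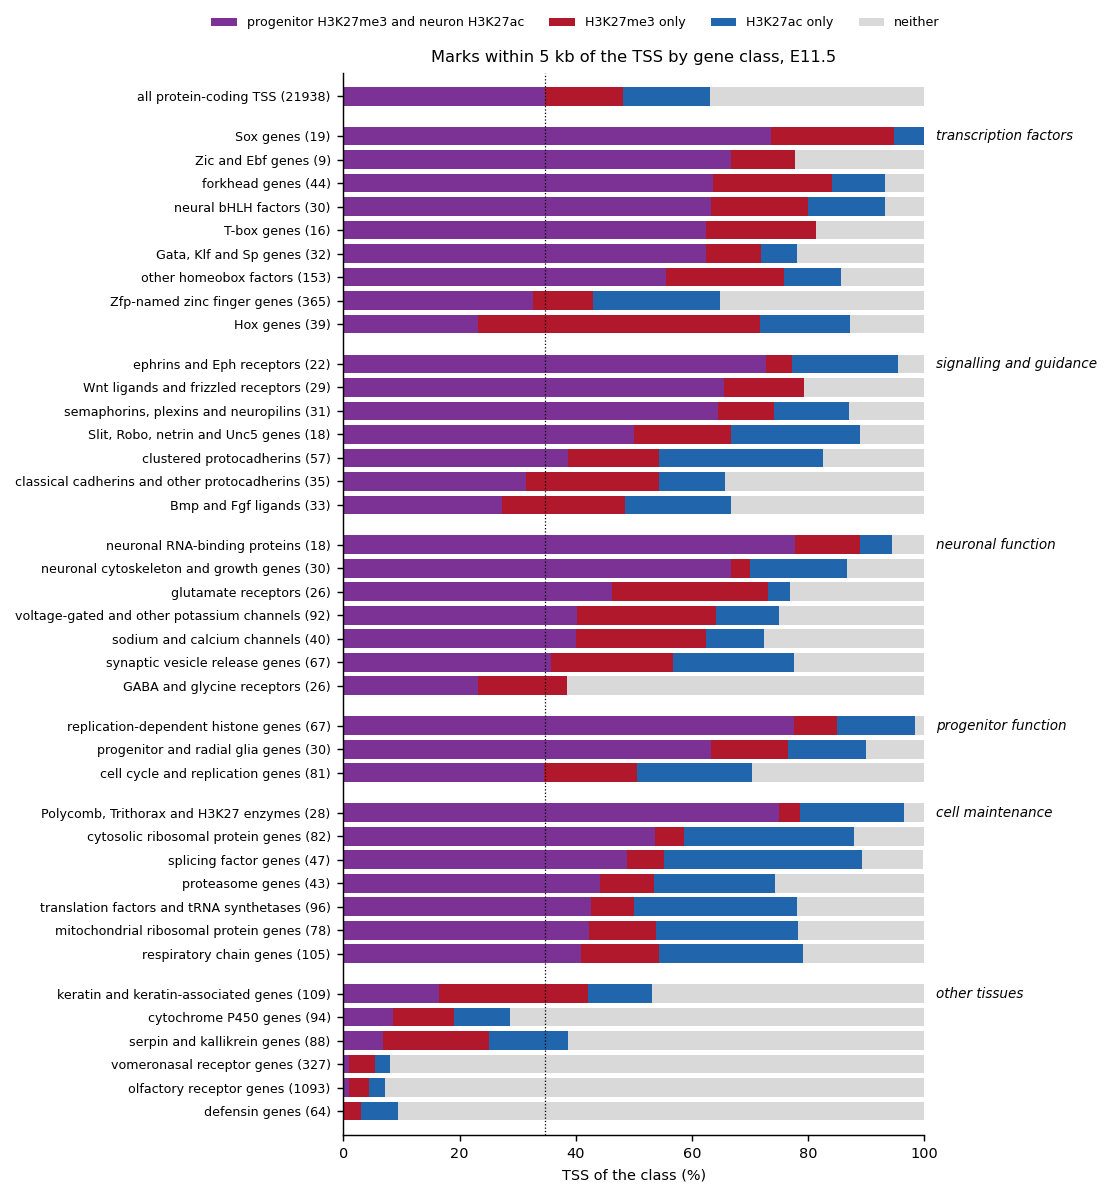
Share of TSS (%) with both marks, progenitor H3K27me3 only, neuron H3K27ac only and neither for all protein-coding TSS and for 39 gene classes, with the number of TSS in parentheses and the dotted line at the 34.8% of all TSS with both. The red segment is widest in the Hox genes (48.7%), and the purple segment exceeds 70% in Sox genes, ephrins and Eph receptors, neuronal RNA-binding proteins, histone genes and the Polycomb class.

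Both marks sat at the same place relative to the gene. In TSS with both marks, H3K27me3 coverage peaked 150 bp downstream of the TSS, where 33.5% of TSS were covered, and H3K27ac coverage peaked at 250 bp, with 51.3%. H3K27me3-only TSS had their maximum at 150 bp as well, with 25.1%, and H3K27ac-only TSS at 150 bp, with 44.8%. Coverage by both lists at once reached 24.2% at 150 bp. The nearest H3K27me3 peak lay downstream of the TSS at 71% of TSS with both marks and 68.8% with H3K27me3 only, and the nearest H3K27ac peak at 76.8% and 75.7%. About 1 kb upstream, H3K27me3 coverage was 1.68% in TSS with both and 0.958% with H3K27me3 only. Within 5 kb, 61.1% of TSS with both marks and 76.3% with H3K27me3 only had a single H3K27me3 peak, while some had many, such as the 8 at Hoxa5.

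**Figure D3:**
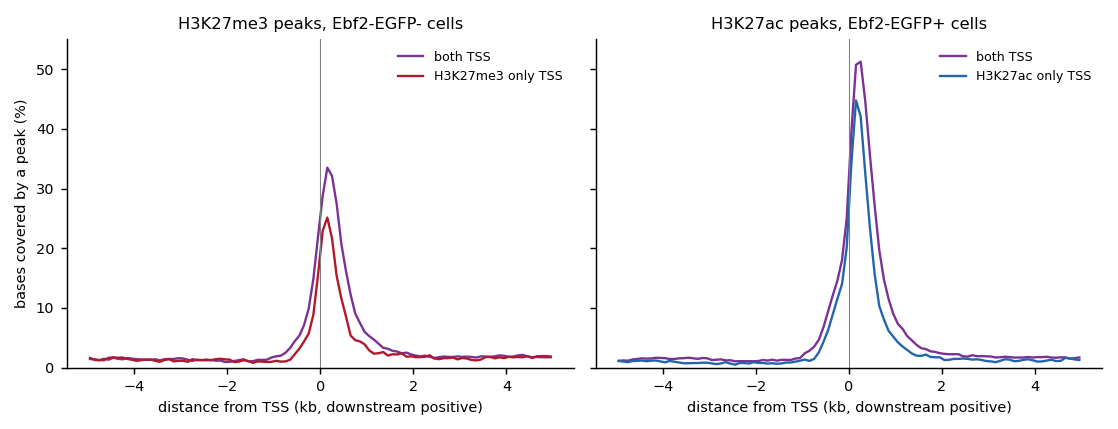
Share of bases covered by a peak (%) against the distance from the TSS (kb, in 100-bp bins, downstream positive) for progenitor H3K27me3 (left) and neuron H3K27ac (right), with 1 line per TSS class. All 4 lines have their maximum within 250 bp downstream of the TSS, at 33.5% and 25.1% for H3K27me3 and 51.3% and 44.8% for H3K27ac.

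Promoter CG content moved with both marks. The median ratio of observed to expected CG in the 300 bases from 250 before to 50 after the TSS was 0.755 with both marks, 0.686 with H3K27ac only, 0.516 with H3K27me3 only and 0.222 with neither. A ratio of 0.5 or more was found at 77% of TSS with both marks, 68.3% with H3K27ac only, 51.5% with H3K27me3 only and 21.1% with neither. H3K27me3 was listed at 23.7% of promoters under a ratio of 0.25 and at 72.4% of those at 1 or more, and H3K27ac at 19.7% and 84.7%.

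The excess over the product differed with the CG ratio. Observed TSS with both marks were 2.54-fold of the product under a ratio of 0.25, 1.63-fold from 0.25 to 0.5, 1.17-fold from 0.5 to 0.75, 1.07-fold from 0.75 to 1 and 1.06-fold at 1 or more. Neuron H3K27ac was still more frequent with progenitor H3K27me3 than without in each range, at 50% (47.4 to 52.5) against 10.3% (9.47 to 11.2) in the lowest and at 89.9% (88 to 91.5) against 71.1% (66.7 to 75.2) in the highest. The ratio to the product has little room above 1 where H3K27ac is listed at most promoters, so the shares with and without H3K27me3 are the values to read in the upper ranges. The part of CG content in the overlap was not tested beyond this split.

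**Figure D4:**
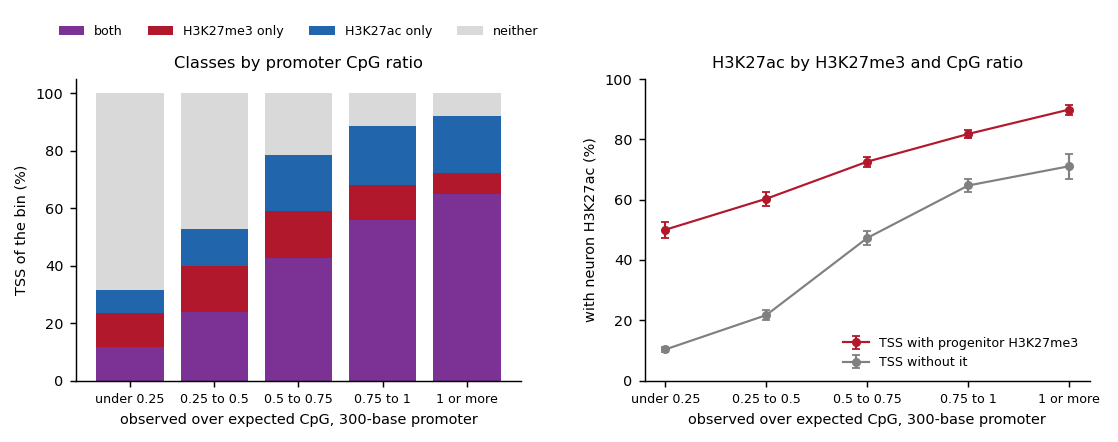
Left, share of TSS (%) in the 4 classes by observed over expected CG in the 300-base promoter. Right, share of TSS with neuron H3K27ac (%) among TSS with (red) and without (grey) progenitor H3K27me3, with Wilson 95% intervals as bars. The red line runs from 50% to 89.9% and the grey line from 10.3% to 71.1%, so that the gap is smaller in the highest than in the lowest range.

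Gene classes also differed among CG-rich promoters. Among promoters with a ratio of at least 0.75, H3K27ac was found at 83.8% (82.7 to 84.8) of H3K27me3 TSS of all genes but at 4 of 13 Hox genes (30.8%, 12.7 to 57.6). The median ratio of the Hox genes was 0.745, above the 0.525 of all TSS and close to the 0.745 of Wnt and frizzled genes, of which 10 of 13 such CG-rich H3K27me3 TSS had H3K27ac. Cell cycle and replication genes also lay below the 83.8% of all genes, at 19 of 29 (65.5%, 47.3 to 80.1). Mitochondrial ribosomal protein genes stood at 17 of 24 (70.8%, 50.8 to 85.1). Low shares in small classes included 1 of 3 T-box genes, 3 of 7 cadherins outside the clusters and 4 of 8 glutamate receptor genes. Potassium channels, in contrast, had H3K27ac at 16 of 17 (94.1%, 73 to 99). Olfactory receptor genes had a median ratio of 0.0878, and none of their promoters reached 0.75. Ribosomal protein genes had a median of 0.82 and splicing factor genes of 0.829.

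Short sequence motifs were searched on both strands of the same 300 bases. GGGCGG, the core of the Sp1 site, was present in 62.1% of promoters with both marks, 53.4% with H3K27ac only, 46.5% with H3K27me3 only and 43% of all promoters. TATAAA, the TATA box, was rarest with both marks (6.9%) and stood at 11.3% with H3K27me3 only, 8.72% with H3K27ac only and 12.6% of all. CAGATG, an E-box preferred by proneural bHLH factors, was present in 11.7%, 15.2% and 14.9% of the 3 classes (both, H3K27me3 only and H3K27ac only) and 15.2% of all, and CAGCTG in 15.2%, 17% and 15.7% and 15.6% of all. The palindromic site of EBF factors, TCCC and GGGA with any 2 bases between, was in 0.968%, 1.2% and 0.875%, against 0.994% of all promoters. GC-rich motifs thus followed the CG content of the classes, and the EBF palindrome was no more frequent in any class beyond its interval.

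The later lists show which of these TSS carried H3K27ac in the neurons after E11.5. Of TSS with both marks, 86.2% (85.4 to 86.9) had H3K27ac at E13.5 and 83.7% (82.8 to 84.5) at E15.5, against 60.9% and 52.3% of all TSS, and 72.5% had it at both stages. Of TSS with H3K27me3 only, 71.7% (70 to 73.3) had H3K27ac at E13.5 and 45.3% (43.5 to 47.1) at E15.5. Of H3K27ac-only TSS, 69.5% (67.9 to 71.1) had it at E13.5 and 72.1% (70.6 to 73.6) at E15.5. The E13.5 list covered 23243 kb and the E15.5 list 11207 kb, so shares can be compared between classes within a stage, not between stages. Of the 2923 TSS with progenitor H3K27me3 only, 517 (17.7%) had H3K27ac at neither later stage, against 203 of 7642 (2.66%) with both. These classes were split by neuron H3K27ac at E11.5, so nothing is read from this difference.

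Listed H3K27me3 in the neurons reached at most 15.4% of TSS in any class, in lists of 6387 (E11.5), 6721 (E13.5) and 1438 peaks (E15.5). At E11.5 it was listed at 8.1% of TSS with both marks, 4.96% with H3K27me3 only, 4.86% with H3K27ac only and 1.92% with neither, against 4.92% of all. At E13.5 it was listed at 15.4% of TSS with both and 11.8% with H3K27me3 only (9.31% of all), and at E15.5 at 1.56% and 1.64% (1.06% of all). TSS that had H3K27me3 only in the progenitors were thus not more often marked by H3K27me3 in the neurons of the same age than TSS with both. Progenitor H3K27ac was listed at 9.4% (8.76 to 10.1) of TSS with both, 4.22% with H3K27ac only and 1.09% with H3K27me3 only, against 4.17% of all TSS.

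**Figure D5:**
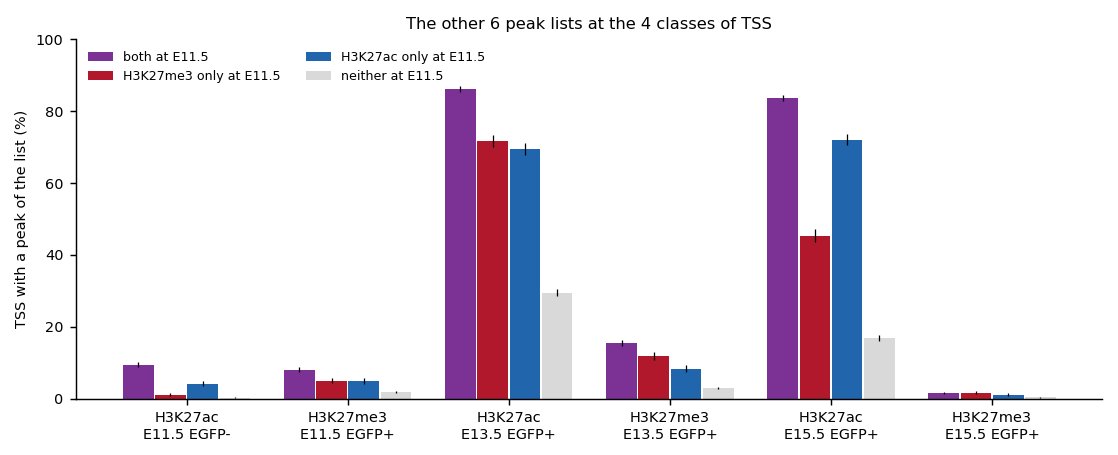
Share of TSS (%) with a peak within 5 kb in each of the other 6 lists, for TSS with both marks, progenitor H3K27me3 only, neuron H3K27ac only and neither at E11.5, with Wilson 95% intervals as vertical lines. TSS with both marks had the highest share in 5 of the 6 lists, and at E15.5 H3K27ac was listed at 83.7% of them against 45.3% of TSS with H3K27me3 only.

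Peak by peak, with an overlap of at least 1 bp, 10617 of 48962 H3K27me3 peaks on chromosomes 1 to 19, X and Y (21.7%, 21.3 to 22.1) met an H3K27ac peak, and 10282 of 37055 H3K27ac peaks (27.7%, 27.3 to 28.2) met an H3K27me3 peak. The overlaps covered 2139 kb, which is 19.4% of the H3K27me3 bases and 21.1% of the H3K27ac bases. Within an overlapping pair the centres lay a median of 96 bp apart and 169 bp were shared. The H3K27me3 peak lay wholly inside the H3K27ac peak in 26.6% of 10865 pairs and the reverse held in a further 15.2%.

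Overlap was most frequent at promoters. Of H3K27me3 peaks centred within 1 kb of a TSS 56.7% (55.7 to 57.8) met H3K27ac, against 20.2% in exons, 12.1% in introns and 1977 of 14668 in intergenic sequence. For H3K27ac peaks the shares were 50.2%, 26.2%, 16.3% and 22.1%. Promoters held 17.4% of all H3K27me3 peaks and 24.5% of all H3K27ac peaks. Overlapping H3K27me3 peaks were wider, with a median of 248 against 173 bp, and the share that overlapped was 10.1% under 150 bp and 63.6% at 500 bp or more. The part of width in this difference was not tested.

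Distal regions also carried both marks. Over 5 kb from any protein-coding TSS, 4812 of 35536 H3K27me3 peaks met neuron H3K27ac. Overlapping H3K27me3 peaks outside promoters had a median CG ratio of 0.537 in the 200 bases around their centre, against 0.269 without overlap. The EBF palindrome was present in 1.09% (0.851 to 1.39) against 0.81% (0.721 to 0.91), with 0.858% of all H3K27me3 peaks, promoters included. CAGATG was less frequent in the overlapping ones outside promoters, at 11.3% (10.5 to 12.2) against 16.9% (16.5 to 17.3), with 14.5% of all H3K27me3 peaks, promoters included. Over all places, promoters included, H3K27me3 peaks that overlapped H3K27ac at E11.5 met H3K27ac of the neurons at E15.5 in 53.7% of cases and the others in 8.59%. These sets were split by neuron H3K27ac at E11.5, so nothing is read from that difference. Among the neuron H3K27ac peaks of E11.5 the shares were 52.1% with H3K27me3 overlap and 18% without. The overlapping ones were wider (median 292 against 196 bp) and more often at promoters, and the part of either was not tested.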

How the data were processed

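The authors immunoprecipitated H3K27ac and H3K27me3 chromatin from sorted cortical cells of Ebf2-EGFP embryos. They used Bowtie 1.1.2 for alignment to mm10 (3 mismatches at most) and MACS with a p cutoff of 1e-05 for peaks. Whether replicates were pooled is not given in the sources used here. The deposited lists held peak starts and ends (in bp, counted from 0) and a score that the authors left at 0 for every peak. Starts were converted to count from 1. Read counts were not analysed here, so the depth is unknown and intervals cover counting error only.

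TSS were the 5′ ends of the 21938 protein-coding genes of GENCODE M21 on chromosomes 1 to 19, X and Y. A TSS was marked by a peak within 5 kb, and peaks overlapped by 1 bp or more. No peak passed the end of a GRCm38 chromosome, and 1 H3K27me3 peak off the 21 chromosomes was left out. Sequences came from GRCm38. Interval code was tested on simulated data (Python 3.11.15, numpy 2.4.6, pandas 2.3.3, scipy 1.17.1). The members, gene classes, marker lists and naming rule (32 fixed genes, the 10 genes with most bases in each state, up to 3 per class) were chosen with earlier results of these data known. The 10 alternatives changed the window, TSS, overlap or peaks. Some of the genes these rules chose are not reported here.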

Additional observations from a re-analysis of the deposited data

How the results depend on the processing

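The lists bound every value: with 1 list per group, scores of 0 and no depth, neither replicate error nor peak strength could be used, so leaving out replicates and taking the upper part of the scores could not be run. No paired analysis was possible because each group had a single list and no result came from a test. Over the 9 alternatives that bear on TSS, TSS with progenitor H3K27me3 always had neuron H3K27ac more often than TSS without it, at 58.4 to 77.3% against 22.9 to 34.7%. With peaks of at least 300 bp, 2151 TSS had both marks, 1530 had H3K27me3 only, and 58.4% of H3K27me3 TSS had H3K27ac, while 2352 H3K27me3 peaks and 2339 H3K27ac peaks overlapped. A reciprocal overlap of 50% left 4823 peaks of each list. The share of H3K27me3 TSS with H3K27ac was 69.5% in a window of 1 kb, 77% in one of 10 kb, 77.3% with any transcript start and 74% when the H3K27me3 list was lowered to its 37055 widest peaks. In an alternative chosen after seeing the data, the 15483 TSS with no other protein-coding TSS within 10 kb, 4788 had both marks, 2118 had H3K27ac only and the share was 69.2%; fewer TSS enter by construction.

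Of the 39 gene classes, 39 stayed on the same side of the share of all TSS with both marks when the H3K27me3 list was lowered by width, 38 when it was lowered at random, 36 in the window of 1 kb and 32 with peaks of at least 300 bp. The 7 that changed side with wide peaks included the T-box genes, ephrins and Eph receptors, glutamate receptors and potassium channels. The Hox genes lay above it only among TSS with no close neighbour.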

Other observations

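Chromosome X differed from the autosomes. Of its 948 protein-coding TSS, 99 (10.4%) had both progenitor H3K27me3 and neuron H3K27ac, against 28 to 44.2% on chromosomes 1 to 19. H3K27me3 was listed at 19.8% and H3K27ac at 19.4% of the TSS of chromosome X, and 52.7% (45.5 to 59.7) of its H3K27me3 TSS had H3K27ac, against 66% on chromosome 6 and 80.1% on chromosome 19, the lowest and highest of the autosomes. Without X and Y, the share was 72.7%. On chromosome Y 2 of 183 TSS had both marks.

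Divergent promoters were marked more often. Of 1487 TSS with an opposite protein-coding TSS within 1 kb, 736 (49.5%, 47 to 52) had both marks, against 33.8% (33.1 to 34.4) of the other 20451, and a single pair of peaks can mark both genes of such a pair.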
